A study of Mus musculus with 12 samples.

Results

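The RNA of 5 genes that mark red blood cells was followed across 12 samples of mouse myocardium, the muscle of the heart. They were the alpha-globin genes Hba-a1 and Hba-a2, the beta-globin genes Hbb-bs and Hbb-bt, and Alas2, the erythroid enzyme that starts haem synthesis. The 5 were taken by name from a table of 33641 gene symbols, and all 5 were among the 13158 genes that passed the filter on low values. All 12 mice were wild-type C57BL/6 males, whose age the labels give both as about 10 weeks, in the treatment protocol, and as about 16 weeks, in the sample description. They formed 4 groups of 3: a sham operation or surgery for myocardial infarction (MI), each followed by vehicle or by prednisone, a synthetic glucocorticoid. Prednisone was injected intraperitoneally at 1 mg/kg once a week for 6 weeks, at lights-on, from 2 weeks after surgery, and the tissue was collected 24 hours after the last dose. The labels do not say which region of the infarcted heart was taken, nor whether blood was flushed from the tissue. They also do not say that the 3 mice of a group were operated on or processed apart, so the spread between them may be partly technical. Values are TPM, each transcript's share of its library corrected for transcript length, so levels may be compared between genes, but the depth behind a value is unknown.

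Haemoglobin of adult mice is a tetramer of alpha and beta chains, each holding a haem group. Red cell precursors make these chains in the bone marrow and lose their nucleus. Young red cells, the reticulocytes, still carry globin mRNA into the blood for a short time, and heart muscle contains blood in its vessels. Alas2 joins glycine and succinyl-CoA in the mitochondria of red cell precursors, while its relative Alas1 does so in other tissues. C57BL/6 mice carry the beta-globin haplotype whose adult genes are Hbb-bs and Hbb-bt.

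The globin genes come in near-identical pairs, which bears on how their values may be read. Over 426 coding bases, Hba-a1 and Hba-a2 differed at 1 base (C381T, counted from the A of the start codon, the Hba-a1 base first). Over 441 coding bases, Hbb-bs and Hbb-bt also differed at 1 base (C417T, the Hbb-bs base first). The stretches around these bases are shown from the GENCODE M21 transcripts of build GRCm38, with the differing base in capitals.
Hba-a1 coding, chr11:32284313-32284373, plus strand: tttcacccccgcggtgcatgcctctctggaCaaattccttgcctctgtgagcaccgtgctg
Hba-a2 coding, chr11:32297130-32297190, plus strand: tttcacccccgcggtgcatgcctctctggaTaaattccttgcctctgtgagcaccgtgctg
Hbb-bs coding, chr7:103826668-103826722, minus strand: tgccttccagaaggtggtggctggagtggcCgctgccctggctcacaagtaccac
Hbb-bt coding, chr7:103812659-103812713, minus strand: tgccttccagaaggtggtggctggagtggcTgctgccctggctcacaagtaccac
The main Hba-a1 model (699 bases) had 161 more bases before the coding part than the main Hba-a2 model (554 bases), and the 77 bases it had after the coding part were the same in Hba-a2. The beta-globin pair differed outside the coding part as well. The split of reads within a pair is therefore less certain than the sum of the pair.

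The promoters are shown as background, and their part in the joint movement of the 5 genes, described below, was not tested. They come from RefSeq, build GRCm38.p6, which matched all 5 genes, and each printed stretch ends where the gene's main GENCODE transcript begins. Capitals mark GATAA (the core bound by GATA factors), CACCC (the core bound by Klf factors), CCAAT and ATATAA, read on both strands. These motifs were chosen after the sequences had been seen.
Hba-a2 promoter, chr11:32296242-32296488, plus strand: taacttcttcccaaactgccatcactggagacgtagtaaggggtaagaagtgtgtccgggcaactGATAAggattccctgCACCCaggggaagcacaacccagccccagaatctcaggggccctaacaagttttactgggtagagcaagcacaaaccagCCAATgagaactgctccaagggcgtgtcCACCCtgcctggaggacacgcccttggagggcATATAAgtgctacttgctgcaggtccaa
Hbb-bs promoter, chr7:103827929-103828178, minus strand: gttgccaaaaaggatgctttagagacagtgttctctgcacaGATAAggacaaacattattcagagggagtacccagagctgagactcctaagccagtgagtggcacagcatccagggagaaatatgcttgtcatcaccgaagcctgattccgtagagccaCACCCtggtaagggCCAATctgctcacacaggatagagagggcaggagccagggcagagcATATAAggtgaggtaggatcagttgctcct
Alas2 promoter, chrX:150547167-150547374, plus strand: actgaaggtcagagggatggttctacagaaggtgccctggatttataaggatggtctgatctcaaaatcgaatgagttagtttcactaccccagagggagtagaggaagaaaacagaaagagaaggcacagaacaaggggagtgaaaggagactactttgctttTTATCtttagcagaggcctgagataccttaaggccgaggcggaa
The RefSeq windows ran from 250 bases before to 50 after the start, and motifs were counted only in the 250 bases before it. In that part, all 4 globin windows held all 4 motifs, as did 0.466% of the 32851 mouse promoters counted in the same way. The same part of the Alas2 window held GATAA once and CACCC 3 times, the latter past the end of the stretch shown, and neither of the other motifs. Of all promoters, 22.6% held GATAA. The share was 52.0% for CACCC, 33.8% for CCAAT and 9.10% for the ATATAA box. The full Hba-a1 and Hba-a2 windows were identical over 297 of 297 aligned bases.

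Summed over the 4 adult globin genes, globin mRNA took a large and very unequal share of the libraries. In sham vehicle mice 1 to 3 it was 9.65%, 7.46% and 2.66% of all TPM. In sham prednisone mice it was 7.85%, 5.02% and 4.29%. In MI vehicle mice it was 9.62%, 3.74% and 6.42%, and in MI prednisone mice 9.77%, 4.76% and 4.75%. The highest library stood 3.67-fold above the lowest, each group held 1 library of at least 7.85%, and every pair of groups overlapped. The group means lay close together, at 6.59% ± 3.57 in sham vehicle, 5.72% ± 1.88 in sham prednisone, 6.59% ± 2.94 in MI vehicle and 6.43% ± 2.90 in MI prednisone (SD, n = 3 each). In each of the 4 groups the mouse numbered 1 in the titles had the highest share; the labels do not say that a number marks a shared day or batch.

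Hbb-bs, the main adult beta-globin gene, was the most abundant member in all 12 libraries. It measured 40074, 32580 and 11178 TPM in sham vehicle mice, 33440, 21925 and 17976 in sham prednisone mice, 38891, 15424 and 26830 in MI vehicle mice and 38563, 19774 and 18151 in MI prednisone mice. The top globin gene ranked between 5th and 17th among all genes of its library. The ratio of Hbb-bs to Mb (myoglobin, the oxygen-binding protein of the heart muscle cell itself) ran from 1.10 to 4.25, while Mb alone stayed between 7546 and 11416 TPM. Cardiomyocyte markers were abundant in every library, with summed levels of 8 markers between 26361 and 43817 TPM.

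Hba-a2, the more abundant alpha-globin gene, was at 34832, 25662 and 9551 TPM in sham vehicle and at 28144, 17350 and 15290 in sham prednisone. In MI vehicle it was at 37089, 13622 and 23274 TPM, and in MI prednisone at 32663, 15701 and 17797. These values rose and fell with Hbb-bs from mouse to mouse, and all groups overlapped.

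Hba-a1, its neighbour on chromosome 11, was at 16919, 12490 and 4687 TPM in sham vehicle and at 13241, 8177 and 7502 in sham prednisone. It was at 15915, 6630 and 11055 TPM in MI vehicle and at 21190, 9703 and 9426 in MI prednisone. The highest of the 12 values was that of MI prednisone mouse 1, and the lowest that of sham vehicle mouse 3.

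Hbb-bt, the minor adult beta-globin gene, measured 4668, 3840 and 1232 TPM in sham vehicle and 3669, 2767 and 2118 in sham prednisone. It measured 4270, 1756 and 3081 TPM in MI vehicle and 5304, 2373 and 2136 in MI prednisone. It stayed at 0.110 to 0.138 of the Hbb-bs level in all 12 libraries.

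Alas2 was far below the globins, at 236, 170 and 63.0 TPM in sham vehicle and 195, 127 and 111 in sham prednisone. It was at 240, 94.6 and 158 TPM in MI vehicle and at 394, 163 and 121 in MI prednisone. MI prednisone mouse 1 again stood highest, and the other values of that group lay among those of the other groups.

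**Figure D1:**
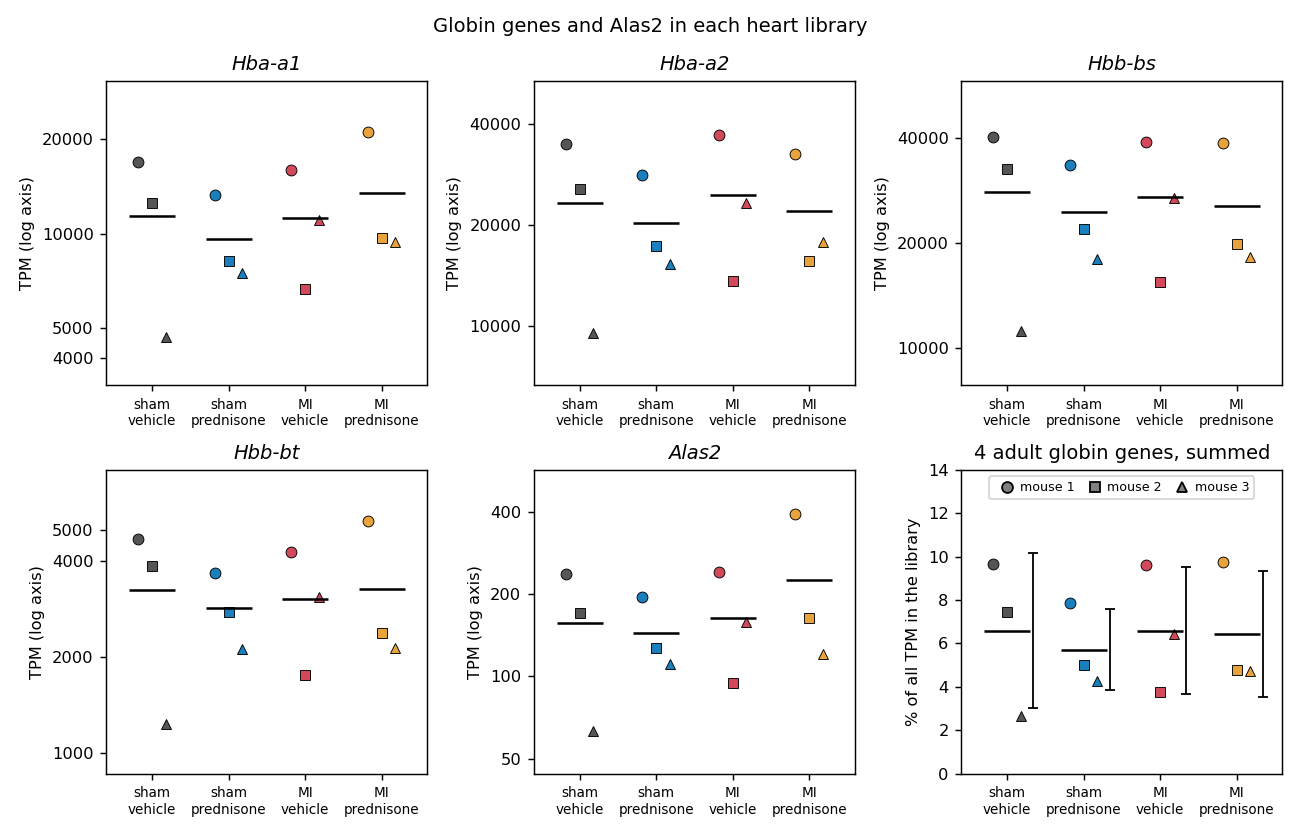
Level of each member in each library (TPM on a log axis) and the summed share of the 4 adult globin genes (percent of all TPM), by group. Symbols give mouse 1, 2 and 3 of each group, horizontal lines group means, and the bars in the last panel SD; the 4 groups overlap in every panel, and mouse 1 is highest in each group.

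None of the 5 members changed in any of the 5 comparisons. Each was tested with limma on log2(TPM + 1), with p-values adjusted over all 13158 genes. Between MI and sham under vehicle the log2 differences ran from 0.02 (Hbb-bt) to 0.16 (Alas2), with limma adjusted p of 0.81 to 0.97. Of all genes tested, 16% were called in that comparison (15.1% higher, 0.904% lower), and 45% had groups that did not overlap. Between MI and sham under prednisone the differences ran from 0.02 (Hbb-bs) to 0.50 (Alas2), with limma adjusted p of 0.58 to 0.98, against 16.8% of genes called (2.73% higher, 14.1% lower) and 45.2% without overlap.

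Prednisone against vehicle after MI moved many genes, with 37.4% called (2.5% higher, 34.9% lower) and 46.2% without overlap, but the members differed by between -0.12 (Hba-a2) and 0.37 (Alas2), with limma adjusted p of 0.60 to 0.92. In sham hearts, where 0.114% of genes were called (0.0532% higher, 0.0608% lower) and 18.2% did not overlap, the members differed by between -0.10 (Hba-a1) and 0.04 (Alas2), with a limma adjusted p of 1 for each. The difference between the prednisone effects after MI and after sham surgery, for which 21.3% of genes were called (0.54% higher, 20.7% lower), ran from -0.06 (Hba-a2) to 0.34 (Hba-a1) for the members, with limma adjusted p of 0.74 to 0.98. The 5 comparisons share groups, so these values are not independent of each other. No member reached an unadjusted p under 0.05 in limma in any comparison, and no member had groups that did not overlap.

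These tests leave wide room. The standard errors of the members' log2 differences between 2 groups were 0.49 to 0.54. The 95% confidence interval of Hbb-bs between MI and sham under vehicle went from 0.486-fold to 2.20-fold, and that of Alas2 between prednisone and vehicle after MI from 0.571-fold to 2.92-fold. Changes within these bounds are compatible with the values of 3 mice a group. The bounds do not give the smallest change that could be called. The medians over the 5 members were 0.08 (MI under vehicle), 0.11 (MI under prednisone), 0.07 (prednisone after MI), -0.05 (prednisone after sham) and 0.09 (the difference between prednisone effects). Over all genes tested, the medians were 0.39, -0.06, -0.41, 0.07 and -0.48 in the same order.

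**Figure D2:**
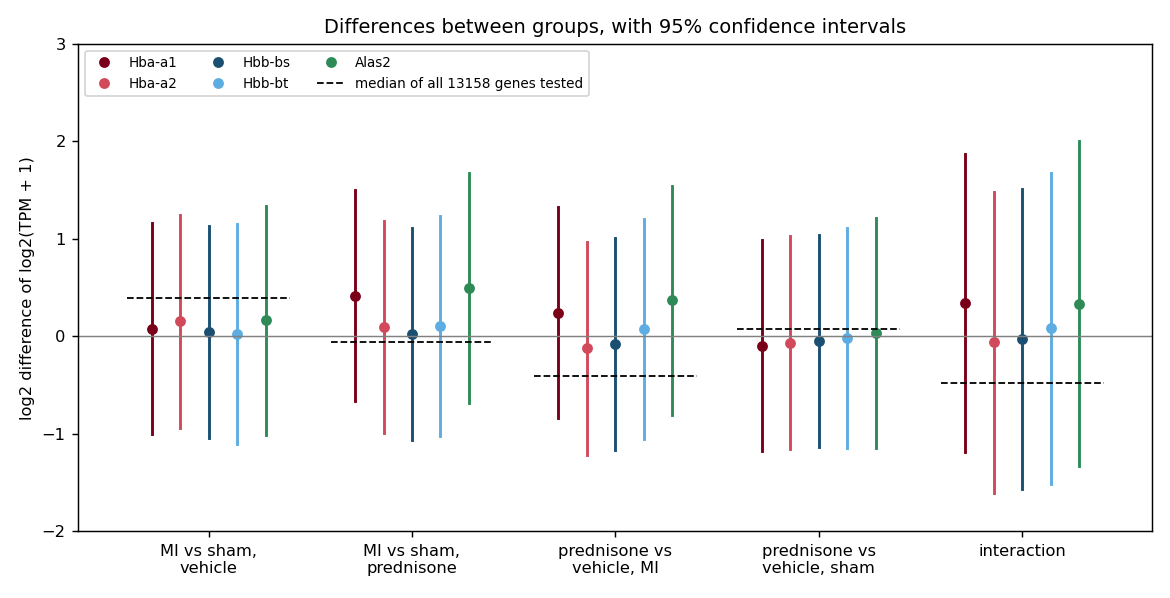
Difference between groups of each member on the log2(TPM + 1) scale (vertical axis) in the 5 comparisons; points are limma estimates and vertical lines 95% confidence intervals, and dashed lines the median of all genes tested. Every interval includes 0, with standard errors of 0.49 to 0.54 between 2 groups.

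The members' variance lay within the groups rather than between them. The share of variance of log2(TPM + 1) within groups was 99.6% for Hbb-bs, 99.5% for Hbb-bt, 98.2% for Hba-a2, 93.2% for Hba-a1 and 89.8% for Alas2. Their within-group SD was 0.70 to 0.77 on the log2 scale, against a median of 0.24 over all 13158 genes tested, and stood between percentiles 94.6 and 95.4 of those genes. Mb, by comparison, had a within-group SD of 0.13. In bulk tissue, fewer red cells in a sample and less globin RNA per red cell cannot be told apart.

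The 5 genes rose and fell together. Over the 12 libraries the 10 pairs of members had Pearson correlations of log2(TPM + 1) from 0.914 (Hba-a2 with Alas2) to 0.990 (Hbb-bs with Hbb-bt). With each group's mean removed the range was 0.961 to 0.995. These are descriptions over libraries that share one TPM total, and the paired genes also share sequence. The alpha chains summed to 1.03 to 1.34 times the beta chains. In the 9 libraries outside the MI prednisone group, Alas2 held between 2.29 and 2.58 TPM per 1000 globin TPM although the globin total varied over 3.62-fold among them.

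The genes most like the globin sum included Bpgm, known from red cells. The 10 tested genes outside the members with the highest Pearson correlation to the log2 globin sum over 12 libraries had r from 0.839 to 0.985. Ube2l6, a ubiquitin- and ISG15-conjugating enzyme, came first with r = 0.985 (Spearman 0.972, and 0.993 with group means removed). Bpgm, which makes the red cell's 2,3-bisphosphoglycerate, had r = 0.947 (Spearman 0.916). Mkrn1, a ubiquitin ligase, followed with r = 0.926.

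Ube2l6 measured 68.3, 55.2 and 21.7 TPM in sham vehicle mice, 60.4, 39.2 and 33.9 in sham prednisone mice, 70.5, 34.3 and 57.8 in MI vehicle mice and 72.4, 35.3 and 38.7 in MI prednisone mice. Its highest library in each group was mouse 1, as for Hbb-bs, and all groups overlapped. Ube2l6 stayed at 0.707 to 0.917 TPM per 1000 globin TPM and Bpgm at 0.939 to 1.47. Of the 10, others were Rsad2 (r = 0.906), Fam46c (0.870), Hbq1b (0.850), Isg20 (0.849), Rec114 (0.840) and Hbq1a (0.839). Rsad2 and Isg20 are best known as interferon-induced genes, and Hbq1a and Hbq1b encode theta-globin chains of the alpha cluster.

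With the 2 libraries farthest from the median globin sum left out, Ube2l6 had r = 0.973, Bpgm 0.906 and Mkrn1 0.889, while Isg20 fell to 0.696 and Hbq1a to 0.733. Of the 10 genes, 8 were again among the first 10 with group means removed, and 8 without the library of the highest globin sum. None of the 10 was called in any comparison.

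**Figure D3:**
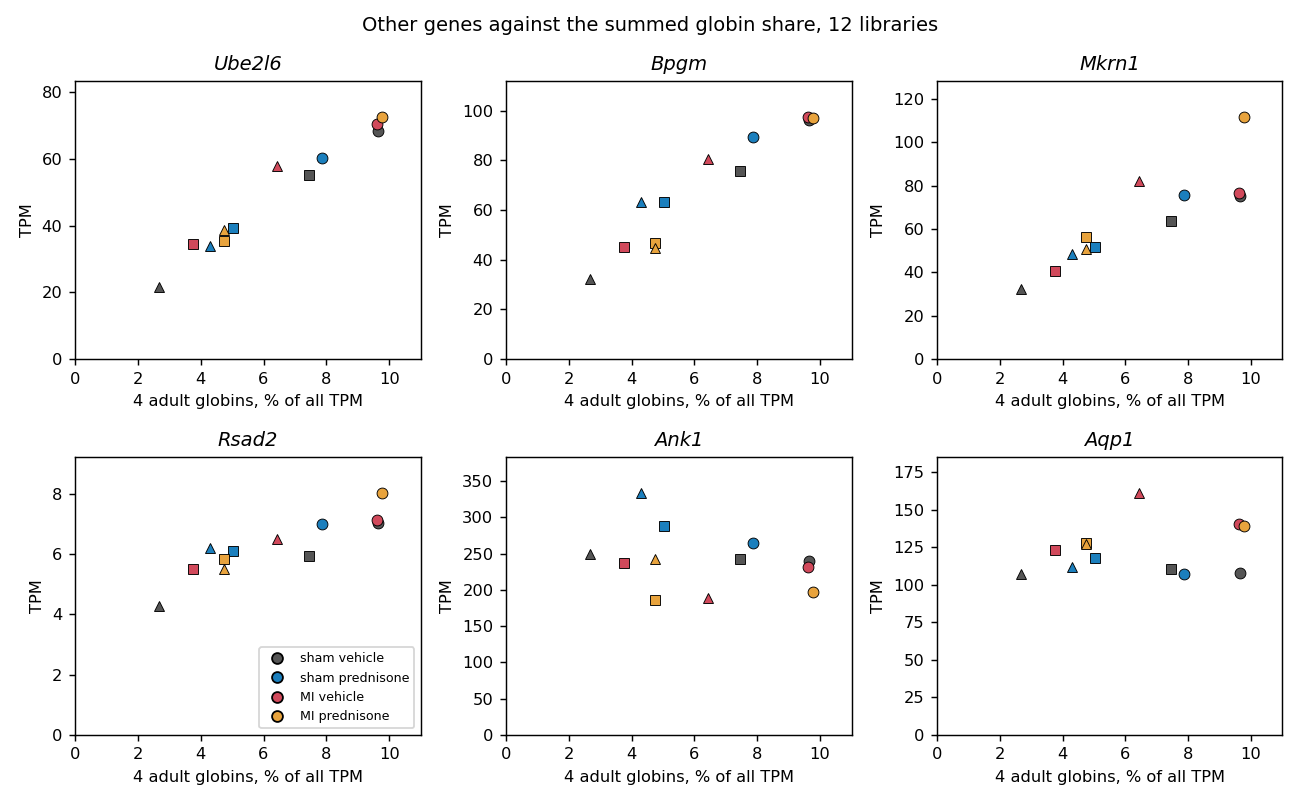
TPM of 6 genes (vertical axes, from 0) against the summed share of the 4 adult globin genes (horizontal axes, percent of all TPM) in 12 libraries; colours give the group and symbols the mouse number. Ube2l6, Bpgm, Mkrn1 and Rsad2 rise with the globin share (r = 0.985, 0.947, 0.926 and 0.906 on the log2 scale), whereas Ank1 and Aqp1 have r = -0.279 and 0.256.

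Other haemoglobin chains were nearly absent. The embryonic genes Hba-x, Hbb-y, Hbb-bh1 and Hbb-bh2 were at 0 in most libraries and never above 0.207 TPM, and Hbb-bh0 was listed at 0 in all 12. Hbq1a and Hbq1b, at means of 1.82 and 1.32 TPM, were the only 2 of the 7 listed chains that passed the filter, and neither was called. Gata1 and Klf1, transcription factors that switch on the globin genes in nucleated precursors, were at 0.399 and 0.220 TPM at most. Gfi1b, a repressor of the same lineage, stayed at or below 0.252 TPM.

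Genes of the red cell membrane differed in how closely they followed the globins. Slc4a1 (the band 3 anion exchanger) was low, at a mean of 1.34 TPM, with r = 0.754 to the globin sum over 12 libraries. This fell to 0.568 without the 2 libraries farthest from the median. Ank1 (ankyrin 1, the most abundant of the list at a mean of 242 TPM), Aqp1 (a water channel also found in endothelium, 123 TPM) and Sptb (beta-spectrin) had r = -0.279, 0.256 and -0.121. Ank1 and Sptb are also made in striated muscle.

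Of the 13 red cell genes tested, 1 rose in MI against sham under vehicle (Aqp1, log2 0.37, SE 0.10, limma adjusted p = 0.039), where 15.1% of all genes rose. The Aqp1 call was lost without any single sham mouse, without MI vehicle mouse 3 and without MI prednisone mouse 1, with limma adjusted p up to 0.136. It was also lost with the replicate number as a block (limma adjusted p = 0.063) and with only the vehicle groups fitted (limma adjusted p = 0.16). Its sign turned under median-ratio rescaling (-0.08) and under a correction for transcript length (-0.06). Under prednisone, 3 of the 13 fell in MI against sham (Ank1 and Sptb among them), where 14.1% of all genes fell.

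Sptb fell most, from 18.1, 18.7 and 16.8 TPM in sham prednisone to 6.89, 5.60 and 10.6 in MI prednisone, without overlap (log2 -1.16, SE 0.18, limma adjusted p = 0.0025). With the length correction it was -0.59 with a limma adjusted p of 0.073. Ank1 (log2 -0.50, limma adjusted p = 0.024) was no longer called without sham prednisone mouse 2 or 3 or MI prednisone mouse 1 or 2, with limma adjusted p up to 0.10, nor under median-ratio rescaling (limma adjusted p = 0.22). None of the 13 was called in this comparison with the length correction. Without MI vehicle mouse 3 the same 3 genes were called.

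Sptb was also lower after prednisone than vehicle in MI hearts (log2 -0.61, limma adjusted p = 0.022), the only one of the 13 called there against 34.9% of all genes that fell. It was no longer called without MI vehicle mouse 2 or MI prednisone mouse 1 or 2, with limma adjusted p up to 0.078, nor with only the MI groups fitted (limma adjusted p = 0.13), and its sign turned under the length correction (0.13). Of the 4 regulators tested, Zfpm1 (a GATA1 partner, mean 9.56 TPM) was lower in the same comparison (log2 -0.72, limma adjusted p = 0.027). That call was lost without MI vehicle mouse 3 or MI prednisone mouse 1 or 2 (limma adjusted p up to 0.092), under median-ratio rescaling (limma adjusted p = 0.20) and with only the MI groups fitted (limma adjusted p = 0.12). Tal1 and Epor, the erythropoietin receptor, at means of 2.12 and 1.20 TPM, were not called in any comparison.

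MI vehicle mouse 3 stood apart from the other libraries. Its 12 lymphocyte markers summed to 2100 TPM against 12.7 to 764 elsewhere, and 14307 genes reached 1 TPM in it against 11690 to 12772. Its globin share, 6.42%, lay in the middle of the 12. Leaving it out called no member in any comparison. Over 12 libraries the globin sum had r = 0.225 with the summed platelet markers (led by Pf4 and Ppbp), 0.170 with neutrophil, 0.272 with monocyte and 0.663 with lymphocyte markers, the last led by Ighm. The endothelial markers had r = 0.078 and the cardiomyocyte markers -0.256.

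The transcript make-up of Alas2 differed in MI prednisone hearts. This was noticed after the values had been seen. The transcript in question (ENSMUST00000142474.1, the short Alas2 transcript) is an annotated processed transcript of 569 bases with no coding part, on chrX:150566390-150570622. Its first 111 bases are intronic and the other 458 (80.5%) are shared with exons 10 and 11, the last 2 of the main coding transcript (ENSMUST00000066337.12, 2037 bases). The boundary is shown from GENCODE M21, build GRCm38, with 60 intronic bases in lower case and the first 40 of exon 10 in capitals.
Short Alas2 transcript at its intron boundary, chrX:150566441-150566540, plus strand: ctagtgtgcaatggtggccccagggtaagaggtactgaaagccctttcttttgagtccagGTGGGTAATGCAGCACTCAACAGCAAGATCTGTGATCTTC

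The short Alas2 transcript was at 0.544, 0.410 and 0 TPM in sham vehicle and at 1.07, 0.942 and 0.431 in sham prednisone. It was at 1.16, 1.42 and 0.987 TPM in MI vehicle, but at 235, 83.5 and 14.1 in MI prednisone. All 3 MI prednisone libraries lay above all 9 others, although they differed 16.6-fold among themselves. Tested with limma over 27769 transcripts, it was higher in prednisone than vehicle after MI by 4.94 (SE 0.72, 95% interval 3.35 to 6.53, limma adjusted p = 8.8e-04), a comparison in which 33% of transcripts were called and 5.92% were higher. Against sham prednisone it was higher by 5.22 (SE 0.72, limma adjusted p = 7.6e-04, with 22.3% of transcripts called and 6.75% higher). The difference between the prednisone effects was 4.47 (SE 1.02, limma adjusted p = 0.015, with 18.7% of transcripts called and 2.87% higher).

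Between MI and sham under vehicle it differed by 0.75 (limma adjusted p = 0.53, with 2.84% of transcripts called and 2.66% higher), and between prednisone and vehicle after sham surgery by 0.47 (limma adjusted p = 1, with 0.054% called and 0.0288% higher). The calls after MI and under prednisone held without each mouse in turn. Without MI prednisone mouse 1, the highest, the value after MI was 4.03 (limma adjusted p = 0.0018), and without mouse 3, the lowest, it was 6.01. The short transcript made up 59.6%, 51.1% and 11.7% of Alas2 in the MI prednisone mice and at most 1.5% elsewhere.

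The main coding transcript went the other way without passing the test. It measured 165, 114 and 39.4 TPM in sham vehicle mice, 136, 80.8 and 74.5 in sham prednisone mice, 174, 67.2 and 104 in MI vehicle mice and 72.2, 41.2 and 58.5 in MI prednisone mice. The MI prednisone values overlapped those of MI vehicle, and prednisone against vehicle after MI gave -0.92 (SE 0.49, limma adjusted p = 0.17). They lay below all sham prednisone values, in a comparison where 45.2% of genes tested had no overlap. MI against sham under prednisone gave -0.73 (SE 0.49, limma adjusted p = 0.32). Set against the globins, the main coding transcript held 0.739, 0.867 and 1.23 TPM per 1000 globin TPM in MI prednisone and 1.48 to 1.81 in all 9 other libraries. The other coding transcript (ENSMUST00000112715.1) held 0.806 to 1.00 in MI prednisone and 0.668 to 0.898 elsewhere.

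Alas2 as a whole thus stood at 4.03, 3.44 and 2.54 TPM per 1000 globin TPM in MI prednisone. Without the short transcript, Alas2 was at 159, 79.9 and 107 TPM in MI prednisone, within the range of 63.0 to 239 of the other 9. Those TPM values also vary with the globin share. Set against the globin sum, the remainder was lower in every MI prednisone library than in any other library, though only narrowly in mouse 3. Most bases of the short transcript are shared with the main one, so its level depends on how the authors' quantification divided the reads, which was not tested. The share of mitochondrial RNA also differed among these libraries: it was 24.6% and 21.6% in MI prednisone mice 1 and 2 and 35.9% in mouse 3. It was 23.1% in MI vehicle mouse 3, where the short transcript was at 0.987 TPM, and 32.4% to 42.0% in the others. Its part in the result was not tested.

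**Figure D4:**
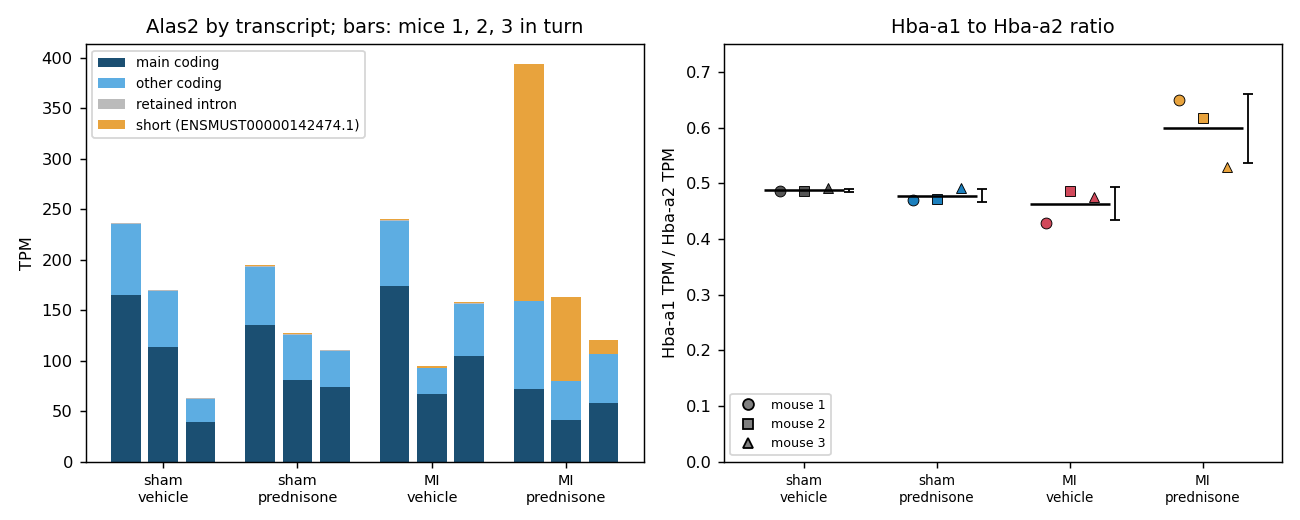
Left, TPM of the 4 annotated Alas2 transcripts stacked for each mouse, 3 bars a group; the short one (ENSMUST00000142474.1) reaches 235, 83.5 and 14.1 TPM in the MI prednisone mice and at most 1.42 elsewhere. Right, ratio of Hba-a1 to Hba-a2 TPM by group (symbols: mice; line: mean; bar: SD), which is 0.530 to 0.649 in MI prednisone and 0.429 to 0.491 elsewhere.

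The balance of the alpha-globin pair differed in the same group. The ratio of Hba-a1 to Hba-a2 was 0.486, 0.487 and 0.491 in sham vehicle. The sham prednisone mice had 0.470, 0.471 and 0.491, and the MI vehicle mice 0.429, 0.487 and 0.475. In MI prednisone it was 0.649, 0.618 and 0.530, all above the other 9. The means were 0.599 ± 0.062 in MI prednisone and 0.464 ± 0.030 in MI vehicle (SD, n = 3 each). No test was run on this ratio, which was noticed after the values had been seen, and 3 mice against 3 cannot give an exact permutation p below 0.1.

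The extra bases of the Hba-a1 model and the shared coding part mean that the ratio depends on how reads were divided between the genes, which was not tested. The intron-retaining Hba-a1 transcript (ENSMUST00000142555.1) made up 8.48% of Hba-a1 in MI prednisone mouse 3 and 2.90% to 4.72% in the other 11 libraries. Hbb-bt to Hbb-bs ratios of MI prednisone, at 0.138, 0.120 and 0.118, overlapped those of both sham groups. They lay above those of MI vehicle, at 0.110, 0.114 and 0.115. No test was run on this ratio either.

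The haem synthesis genes outside Alas2 did not follow the globin share as a sum (r = -0.109 to the globin sum over 12 libraries). Single genes ran from r = -0.553 (Uros) to 0.579 (Slc25a39). Without the 2 libraries farthest from the median globin sum, Slc25a39 had r = 0.130. Alas1 (mean 159 TPM), Slc25a39 and Tmem14c (93.2 and 69.7 TPM, mitochondrial carriers) were the most abundant. Of the 14 genes, 4 fell in MI against sham under prednisone (Abcb10, Clpx, Cpox and Fech), where 14.1% of all genes fell, and 3 of them (Clpx, Cpox and Fech) fell with prednisone after MI, where 34.9% of all genes fell. None rose in either comparison. Under median-ratio rescaling the first count became 1 higher (Urod) and 1 lower (Cpox), and the second 7 higher and 0 lower; the median of all genes in the second comparison was -0.41 before rescaling. With the length correction, which covered 11 of the 14, the first became 1 lower (Alas1) and the second 3 higher (Ppox and Urod among them).

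Cpox, the coproporphyrinogen oxidase, was at 10.9, 11.4 and 12.3 TPM in MI vehicle and at 5.34, 4.29 and 7.47 in MI prednisone, without overlap (log2 -0.93, SE 0.15, limma adjusted p = 0.0019). Fech, the ferrochelatase that puts iron into haem, was at 59.8, 58.0 and 53.5 TPM against 40.3, 31.7 and 44.9 (log2 -0.55, SE 0.12, limma adjusted p = 0.0068). Clpx, a mitochondrial chaperone that activates Alas enzymes, differed by -0.64 (SE 0.11, limma adjusted p = 0.0022). Under median-ratio rescaling these were -0.51, -0.10 and -0.19, with limma adjusted p of 0.066, 0.76 and 0.48. With only the MI groups fitted, the limma adjusted p were 0.054, 0.077 and 0.053. Cpox, Fech and Clpx were chosen after their values were seen.

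Hmox1 and Lrp1 were the only clearance genes called with MI under vehicle. All 8 tested were higher there, 7 of them at an unadjusted limma p under 0.05. Their median log2 difference was 0.56, against 0.39 over all genes tested. Of the 8 clearance genes tested, 2 were thus called higher in MI under vehicle, where 15.1% of all genes were. With prednisone after MI, 2 fell (Cd163 and Hmox1) and 1 rose (Lrp1), where 34.9% of all genes fell and 2.5% rose. Under median-ratio rescaling this count became 3 higher (Blvrb, Lrp1 and Slc48a1) and 1 lower (Hmox1). Hmox1, the haem oxygenase that breaks haem open, was at 5.99, 8.60 and 5.38 TPM in sham vehicle and at 9.85, 14.9 and 20.0 in MI vehicle. It was at 6.36, 5.94 and 5.30 TPM in sham prednisone and at 6.29, 6.01 and 5.49 in MI prednisone, so MI vehicle lay above all other groups. Markers of other cells moved the same way: all 6 fibroblast markers were called higher in MI under vehicle and all 6 lower with prednisone after MI. So were 2 of 5 monocyte markers tested (Ccr2 and F13a1), the lower count being near the 34.9% of all genes. Under median-ratio rescaling, 2 fibroblast and 0 monocyte markers were called higher in MI under vehicle. With prednisone after MI, 5 fibroblast and 1 monocyte markers were then called lower. The fibroblast markers summed to 326 to 425 TPM in sham vehicle, 349 to 418 in sham prednisone, 704 to 870 in MI vehicle and 247 to 422 in MI prednisone. The monocyte markers summed to 16.9 to 29.1, 19.5 to 27.2, 38.3 to 155 and 15.8 to 25.3 TPM in the same order, and no marker of either list was at 0 in all libraries. Their part in the changes of the clearance and iron genes was not tested.

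The MI difference of Hmox1 under vehicle was 1.03 (SE 0.22, limma adjusted p = 0.019); without sham vehicle mouse 1 or 3 the limma adjusted p rose to 0.077 and 0.089, and with only the vehicle groups fitted to 0.13. The prednisone difference after MI was -1.15 (SE 0.22, limma adjusted p = 0.0037). Hmox1 had r = 0.101 to the globin sum. Lrp1, a receptor for haem bound to haemopexin, rose from 20.8, 19.4 and 20.1 TPM in sham prednisone to 76.3, 66.6 and 45.6 in MI prednisone (log2 1.57, SE 0.17, limma adjusted p = 0.0012). Its difference with prednisone after MI was smaller (0.48, SE 0.17, limma adjusted p = 0.045) and was lost without any single sham mouse, without MI vehicle mouse 1 or 3 and without MI prednisone mouse 1 or 2, with limma adjusted p up to 0.17. Its rise under vehicle (0.75, limma adjusted p = 0.021) was lost without sham vehicle mouse 1 or 3 and under median-ratio rescaling (0.30, limma adjusted p = 0.38). Hmox1 was chosen after its values were seen.

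Of the 12 iron-handling genes, 5 fell with prednisone after MI (Hfe, Ireb2, Ncoa4, Slc40a1 and Steap3) and none rose, where 34.9% of all genes fell. Under median-ratio rescaling this became 2 higher (Fth1 and Hamp) and 3 lower (Ireb2, Ncoa4 and Slc40a1). Over the 11 genes with a length, the length correction gave 1 higher (Hamp) and 1 lower (Ncoa4). Slc40a1, the iron exporter ferroportin, was at 7.76, 7.49 and 10.7 TPM in MI vehicle and at 4.97, 2.99 and 4.12 in MI prednisone (log2 -0.95, SE 0.17, limma adjusted p = 0.0028). With the length correction it was no longer called (-0.41, limma adjusted p = 0.085), nor with only the MI groups fitted (limma adjusted p = 0.057). Ncoa4, the receptor that delivers ferritin for breakdown, fell from 45.0, 34.7 and 71.1 TPM to 19.6, 15.5 and 22.4 (log2 -1.30, SE 0.22, limma adjusted p = 0.0021). The ferritin chain gene Fth1, at a mean of 1972 TPM, was not called in any comparison without that rescaling. Slc40a1 and Ncoa4 were chosen after their values were seen.

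The counts of called genes moved less when the globins were removed than when they were fitted. With the 4 adult globin genes taken out and each library rescaled, 5067 genes were called for prednisone against vehicle after MI in place of 4917, and 4890 were in both sets. For MI against sham under vehicle 2184 were called in place of 2100, with 2053 in both. With the log2 globin sum as a covariate, the counts were 4521 and 1312, of which 4464 and 1303 were also called without it. A covariate takes up a degree of freedom of the fit, which removal does not, so the 2 settings are not like for like. Both settings were added after seeing the data.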

How the data were processed

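RNA was isolated with Trizol and columns and made into stranded mRNA libraries, per the labels' protocols. The authors deposited TPM for 105129 transcripts in 12 columns. Trimmomatic, HISAT2, kallisto and the build mm10 are named in the submitters' processing notes, without role or version. TPM carries no depth, so no counting error is given, and precision rests on 3 mice a group.

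Gene values are the sum of their transcripts' TPM. The 13158 genes that reached 1 TPM in 3 or more samples entered a limma 3.58.1 fit (R 4.3.3) on log2(TPM + 1), with a variance trend, 1 mean per group and all 12 samples. Benjamini-Hochberg adjustment ran over all tested genes, and an adjusted p under 0.05 was called. Fold changes on this scale understate those of low genes. The script was tested on simulated data. Named genes were the members, the 3 most abundant genes of each list, called red cell genes and regulators, and the 10 genes most like the globin sum. Of 138 listed genes, 135 were found in the table. Members and lists were chosen with earlier results of these data known. Alternatives were other scalings, pseudocount 0.1, no filter, no trend, a replicate block, length correction, single transcripts, summed paralogues and leaving out each mouse. Results of some listed genes are not reported here.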

Additional observations from a re-analysis of the deposited data

Results flagged for a closer look

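The prednisone effect differed between MI and sham hearts for 10 genes of the red cell, haem synthesis, clearance and iron lists and for 1 transcript. This was by a limma test of the difference itself (log2, MI minus sham). Of all genes tested, 21.3% were called in that test (0.54% higher, 20.7% lower). Of all transcripts tested, 18.7% were (2.87% higher). The short Alas2 transcript differed by 4.47, and this call held without each mouse in turn. Cpox differed by -1.18 and Ncoa4 by -1.52. Slc40a1 differed by -1.0 and Hmox1 by -1.01. Sptb differed by -0.89, Fech by -0.62 and Clpx by -0.57, while Lrp1 differed by 0.82. Cd163, a scavenger receptor for haemoglobin, differed by -0.88, and Ireb2, an iron-sensing RNA-binding protein, by -0.72. The calls of Sptb, Fech, Clpx, Hmox1, Lrp1, Slc40a1, Cd163 and Ireb2 were each lost without some single mice. Median-ratio rescaling ended those of Cpox, Fech, Clpx, Sptb, Hmox1, Slc40a1, Cd163 and Ireb2. With the length correction, Ncoa4 was no longer called either (-0.95, limma adjusted p = 0.064), and of the genes above with a length only Lrp1 was. None of the 5 members differed in this way.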

How the results depend on the processing

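No member was called in any comparison under any of the settings tried, and the smallest limma adjusted p of a member was 0.10. Their small differences changed sign in 53 of 270 values from other settings, and those values follow. With median-ratio rescaling, MI against sham under vehicle gave -0.29 for Alas2, -0.082 for Aqp1, -0.38 for Hba-a1, -0.30 for Hba-a2, -0.41 for Hbb-bs and -0.44 for Hbb-bt. Prednisone after MI gave 0.34 for Hba-a2 and 0.39 for Hbb-bs. Prednisone after sham gave -0.046 for Alas2. The difference between prednisone effects gave 0.49 for Hba-a2 and 0.52 for Hbb-bs. With the length correction, with or without a replicate block, MI against sham under vehicle gave -0.26 for Alas2, -0.058 for Aqp1, -0.34 for Hba-a1, -0.28 for Hba-a2, -0.38 for Hbb-bs and -0.39 for Hbb-bt. MI against sham under prednisone gave -0.15 for Hba-a2, -0.21 for Hbb-bs and -0.12 for Hbb-bt. Prednisone after MI gave 0.13 for Hba-a2, 0.17 for Hbb-bs and 0.13 for Sptb. Prednisone after sham gave -0.0067 for Alas2 and 0.0092 for Hbb-bt. The difference between prednisone effects gave 0.14 for Hba-a2, 0.17 for Hbb-bs and 0.056 for Ireb2. With mitochondrial rows removed, MI against sham under vehicle gave -0.063 for Hba-a1, -0.095 for Hbb-bs and -0.12 for Hbb-bt. MI against sham under prednisone gave -0.060 for Hba-a2, -0.13 for Hbb-bs and -0.049 for Hbb-bt. Prednisone after MI gave -0.014 for Hbb-bt. Prednisone after sham gave -0.036 for Alas2. With the most abundant transcript alone, MI against sham under prednisone gave -0.73 for Alas2. Prednisone after MI gave -0.92 for Alas2. The difference between prednisone effects gave -0.97 for Alas2. With the paralogues summed, prednisone after MI gave 0.0051 for Hba-a2 and -0.057 for Hbb-bt. The difference between prednisone effects gave 0.080 for Hba-a2 and -0.012 for Hbb-bt. Mean globin shares with mitochondrial rows removed were 10.5% in sham vehicle, 8.84% in sham prednisone, 9.70% in MI vehicle and 8.82% in MI prednisone; the rise follows from the smaller total. Leaving out each mouse in turn, MI against sham under vehicle ranged from -0.39 to 0.56 for Alas2, -0.47 to 0.46 for Hba-a1, -0.39 to 0.54 for Hba-a2, -0.52 to 0.40 for Hbb-bs and -0.57 to 0.39 for Hbb-bt. MI against sham under prednisone ranged from -0.23 to 0.36 for Hba-a2, -0.32 to 0.27 for Hbb-bs and -0.30 to 0.35 for Hbb-bt. Prednisone after MI ranged from -0.12 to 0.72 for Alas2, -0.14 to 0.54 for Hba-a1, -0.49 to 0.23 for Hba-a2, -0.43 to 0.24 for Hbb-bs and -0.34 to 0.36 for Hbb-bt. Prednisone after sham ranged from -0.52 to 0.43 for Alas2, -0.64 to 0.29 for Hba-a1, -0.61 to 0.32 for Hba-a2, -0.61 to 0.31 for Hbb-bs and -0.61 to 0.35 for Hbb-bt. The difference between prednisone effects ranged from -0.16 to 0.89 for Alas2, -0.043 to 0.88 for Hba-a1, -0.44 to 0.49 for Hba-a2, -0.38 to 0.54 for Hbb-bs and -0.33 to 0.68 for Hbb-bt.

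Replicate numbers belong to different mice. With the replicate number as a block, no member was called (limma adjusted p of 0.399 for Alas2 with prednisone after MI, and 0.437 for Hba-a1 in MI against sham under prednisone). The deviations of same-numbered mice had mean correlations of -0.37, -0.05, -0.25 and 0.003 in the 4 comparisons of 2 groups, so the numbers were not taken as pairs. For each member, however, mouse 1 had the highest value in every group. The block ended the calls of Aqp1 (MI under vehicle) and Cd163 (MI under prednisone) and, for the difference between prednisone effects, those of Sptb, Hmox1, Cd163 and Ireb2. The difference between prednisone effects cannot be fitted on 2 groups alone. Other named genes gave 352 values under other settings, of which 92 were no longer past the threshold and 7 changed sign, the latter among those above. With 3 mice a group and TPM without depth, the absence of a call does not exclude differences of the members of about 2-fold or more.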
